A study of Mus musculus with 6 samples.

Results

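The genes described here are 10 genes known as markers of resident macrophages of the fetal liver, Marco, C1qa, C1qb, C1qc, Cd5l, Vcam1, Cd163, Mrc1, Siglec1 and Timd4. They are 10 of the 18193 genes that have at least 1 probe set annotated to no other gene. The 10 were proposed with the wild type against Eklf knockout results of these same arrays in view. Their differences between the genotypes are therefore given as a description, and the list was not tested. Calls of single members in the fit over all genes are counted below, and nothing is read from those counts. Every probe set annotated to 1 of these genes alone was taken, which gave 17 of 34945 such probe sets. Marco had 2, C1qb, Vcam1 and Siglec1 had 3 each, and the other 6 genes had 1.

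Fetal liver is a site of red cell production in the embryo. There, developing red cells cluster around a central macrophage that holds them through adhesion molecules, takes up the nuclei they expel and recycles iron. Resident macrophages of this kind carry scavenger receptors, lectins and receptors for phosphatidylserine, and they are a main source of C1q, the recognition molecule of the classical complement pathway.

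RNA came from cells sorted as early erythroid progenitors from liver of C57BL/6 fetuses aged 13.5 days, after staining for CD71, Ter119 and the dead-cell dye 7AAD, and the source labels number 1 fetal liver per array. There were 3 arrays labelled wild type and 3 labelled Eklf -/-, that is, homozygous for a knockout of Eklf. Eklf, whose gene symbol is Klf1, is a transcription factor of the red cell lineage. Per the labels, the knockout was made from genomic clones of strain 129 introduced into C57BL/6 blastocysts, and it is not given in the sources used here as restricted to 1 cell type.

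Signals are MAS5 intensity values, scaled so that the trimmed mean of every array was 500. Median signals were 97.7 to 140 across the wild-type-labelled arrays, against 204 to 218 across the knockout-labelled ones. Klf1 itself had a mean signal of 3081 ± 827 (SD, n = 3) on the wild-type-labelled arrays and 2480 ± 1058 on the knockout-labelled arrays, and it did not pass the test (log2 difference -0.38 ± 0.32, SE; limma adjusted p = 0.347), although median centring of the arrays gave -1.20 (adjusted p = 0.0128). On the deposited scale its probe set did not separate the labels, and groups are named by label. Whether that probe set lies in the deleted part of the gene is not given in the sources used here. Summed over 14 erythroid markers, the signal was 34624 to 39921 across the wild-type-labelled arrays, against 99564 to 125729 across the knockout-labelled ones. Tfrc, which encodes CD71, had group means of 5828 and 8039, while Epb42, another of these markers, had 257 and 1420. A signal of 98.6, the 40th percentile of the mean log2 signals, was the level under which genes were not tested. It is used below as a mark for dim signals, since detection calls were not used here. In bulk RNA of this kind, fewer cells of a type and less RNA per cell cannot be told apart.

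C1qa, C1qb and C1qc encode the chains that assemble into C1q. In the RefSeq annotation they follow each other on chromosome 4, with no other protein-coding gene between them. All probe sets of these genes were brighter on every knockout-labelled array than on every wild-type-labelled array. The C1qa signals were 8.92, 6.93 and 15.8 across the wild-type-labelled arrays, against 763, 611 and 944 across the knockout-labelled ones. The wild-type values lay far under the mark of 98.6, while the geometric mean of the knockout values was 7.71 times that mark. The log2 difference was 6.26 ± 0.40 (SE from the 3 values of each group), and C1qa was not tested because its mean over all arrays fell under the filter.

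C1qb gave 102, 90.5 and 240 against 885, 702 and 1204 at its brightest probe set, a log2 difference of 2.80 ± 0.50 (SE). Its other 2 probe sets gave 3.74 ± 0.46 and 2.66 ± 0.65. The groups did not overlap at any of the 3, although wild-type-labelled array 3 was the highest of its group at each. Both C1qb probe sets named with the suffix x_at, the brightest among them, contain probes that can match other transcripts, and the one without the suffix gave the largest of the 3 differences.

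C1qc was the most uneven of the chains on the wild-type-labelled arrays, at 4.18, 36.9 and 97.4, a spread of 23.3-fold among signals that were all under the mark. On the knockout-labelled arrays it gave 751, 692 and 1567, which is 9.47 times the mark by geometric mean. The log2 difference of 5.24 carried an SE of 1.39, the largest among the 17 probe sets, and it rests on how low the dim wild-type values are taken to be. With 64 added to every signal before taking log2, it was 3.27, against 3.47 for C1qa and 2.30 for C1qb.

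Marco is a class A scavenger receptor with a collagen-like stalk and a scavenger receptor cysteine-rich domain, which binds bacteria and modified lipoproteins. Its brightest probe set read 11.5, 7.43 and 8.81 across the wild-type-labelled arrays, against 1155, 1018 and 2066 across the knockout-labelled ones. The second probe set read 11.3, 5.75 and 17.6 against 816, 554 and 1380. Every wild-type value was far under the mark, and the knockout geometric means were 13.6 and 8.66 times the mark. The log2 differences were 7.21 ± 0.36 and 6.35 ± 0.60 (SE). Their size rests on the dim wild-type values, and with 64 added to every signal the brightest probe set gave 4.27.

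Promoter sequences are shown for C1qb, C1qc and Marco, whose probe sets were all brighter on the knockout-labelled arrays, and for Cd163, the member that was not. Each runs from 250 bases before to 50 bases after the annotated start, 5′ to 3′ on the strand of the gene, from RefSeq (GRCm38.p6). Capitals mark GAGGAA on either strand (TTCCTC on the strand shown), a core of the sites bound by PU.1 and related ETS factors. Of the 10 members, 7 had a sequence in the RefSeq promoter table used, and C1qa, Vcam1 and Siglec1 did not.
C1qb (chr4:136886151-136886450, minus strand): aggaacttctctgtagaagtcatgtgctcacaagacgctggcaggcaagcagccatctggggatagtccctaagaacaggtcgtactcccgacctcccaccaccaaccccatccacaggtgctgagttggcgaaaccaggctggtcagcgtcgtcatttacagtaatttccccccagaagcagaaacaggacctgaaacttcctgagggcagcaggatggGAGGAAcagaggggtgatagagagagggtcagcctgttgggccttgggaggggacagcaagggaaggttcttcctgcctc
C1qc (chr4:136892865-136893164, minus strand): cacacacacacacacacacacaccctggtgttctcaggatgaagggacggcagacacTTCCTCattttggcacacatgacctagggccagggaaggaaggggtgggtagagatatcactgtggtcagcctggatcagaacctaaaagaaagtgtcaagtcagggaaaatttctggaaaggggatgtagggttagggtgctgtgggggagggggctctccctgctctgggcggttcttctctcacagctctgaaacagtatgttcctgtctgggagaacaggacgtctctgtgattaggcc
Marco (chr1:120504975-120505274, minus strand): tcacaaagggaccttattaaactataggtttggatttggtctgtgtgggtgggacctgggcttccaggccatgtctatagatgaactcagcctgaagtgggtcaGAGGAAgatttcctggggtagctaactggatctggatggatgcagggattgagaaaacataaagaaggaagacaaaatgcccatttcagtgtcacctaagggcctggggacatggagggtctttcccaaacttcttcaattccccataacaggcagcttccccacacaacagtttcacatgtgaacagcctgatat
Cd163 (chr6:124304401-124304700, plus strand): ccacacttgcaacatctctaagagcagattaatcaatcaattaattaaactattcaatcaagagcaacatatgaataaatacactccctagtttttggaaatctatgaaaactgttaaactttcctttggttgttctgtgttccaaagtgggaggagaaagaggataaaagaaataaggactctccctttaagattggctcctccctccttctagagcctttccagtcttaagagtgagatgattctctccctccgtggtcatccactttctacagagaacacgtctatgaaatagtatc
GAGGAA was found in the C1qb promoter at -30, in C1qc at -193 and in Marco at -146, counted from the start to the first matching base on the strand shown. It was also in the promoters of Cd5l and Mrc1, so that 5 of 7 member promoters held it, against 28.3% of all 32851 promoter windows. CCNCNCCC, a form of the sites bound by Klf1, was in 4 of 7 (C1qb, C1qc, Cd5l and Mrc1) and in 49.5% of all windows. TGCTGA, a part of the sites bound by Maf factors, was in 3 of 7 (C1qb, Cd5l and Timd4) and in 19.5% of all windows. Both strands were searched, and both CCNCNCCC matches of C1qc overlap each other. None of these letters were found in the Cd163 window. GAGGAA was also absent from the window of Timd4, a member that was brighter on the knockout-labelled arrays. Cd163 was dim on every array, and a link between these letters and the signals was not tested.

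Cd5l, a secreted protein of the scavenger receptor cysteine-rich family that macrophages release, was above the mark in both groups. Its signals were 231, 232 and 323 across the wild-type-labelled arrays, against 838, 959 and 1128 across the knockout-labelled ones. The groups did not overlap, and the log2 difference was 1.90 ± 0.20 (SE), a 3.74-fold higher signal.

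Cd163, the receptor through which macrophages take up haemoglobin bound to haptoglobin, was dim throughout and was the 1 member with a negative difference. It gave 42.3, 7.39 and 29.5 across the wild-type-labelled arrays, against 8.95, 7.94 and 13.7 across the knockout-labelled ones. The groups overlapped, every value was under the mark, and the log2 difference of -1.08 ± 0.80 (SE) is about the size of its error. Cd163 was not tested, and at these signals a difference was not detectable.

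Mrc1, the macrophage mannose receptor, gave 280, 325 and 127 across the wild-type-labelled arrays, against 1088, 1406 and 1191 across the knockout-labelled ones. Wild-type-labelled array 3 was the lowest of its group here, where it had been the highest for the C1q genes. The groups did not overlap, with a log2 difference of 2.43 ± 0.43 (SE). Mrc1 is also made by sinusoidal endothelial cells, whose markers are given below.

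Siglec1, a sialic acid-binding lectin of resident macrophages also called sialoadhesin, had the smallest difference at the brightest probe set among the members that were brighter with the knockout label. That probe set gave 160, 110 and 83.0 against 261, 313 and 360, a log2 difference of 1.45 ± 0.31 (SE) between groups that did not overlap. A second, dimmer probe set gave 47.8, 33.2 and 9.72 against 113, 140 and 99.3. The third stayed under the mark on all arrays and its groups overlapped, at 33.1, 4.97 and 6.82 against 16.95, 68.4 and 17.2.

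Vcam1, the adhesion molecule by which island macrophages and other stromal cells hold cells that carry the integrin alpha4beta1, varied least within the groups. At its brightest probe set it stood at 305, 283 and 305 across the wild-type-labelled arrays, against 1008, 966 and 1169 across the knockout-labelled ones. The log2 difference was 1.81 ± 0.09 (SE), and the other 2 probe sets gave 2.37 ± 0.06 and 1.68 ± 0.14. All Vcam1 signals were above the mark in both groups, so these differences, 3.20- to 5.18-fold, do not depend on dim values.

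Timd4, a receptor for phosphatidylserine on dying cells, was dim on the wild-type-labelled arrays at 10.5, 3.29 and 45.7. It gave 139, 107 and 172 on the knockout-labelled arrays, just above the mark. The groups did not overlap, but the log2 difference of 3.55 ± 1.12 (SE) was 1.30 with 64 added to every signal, so its size is poorly fixed. Timd4 was not tested because its mean was under the filter.

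**Figure D1:**
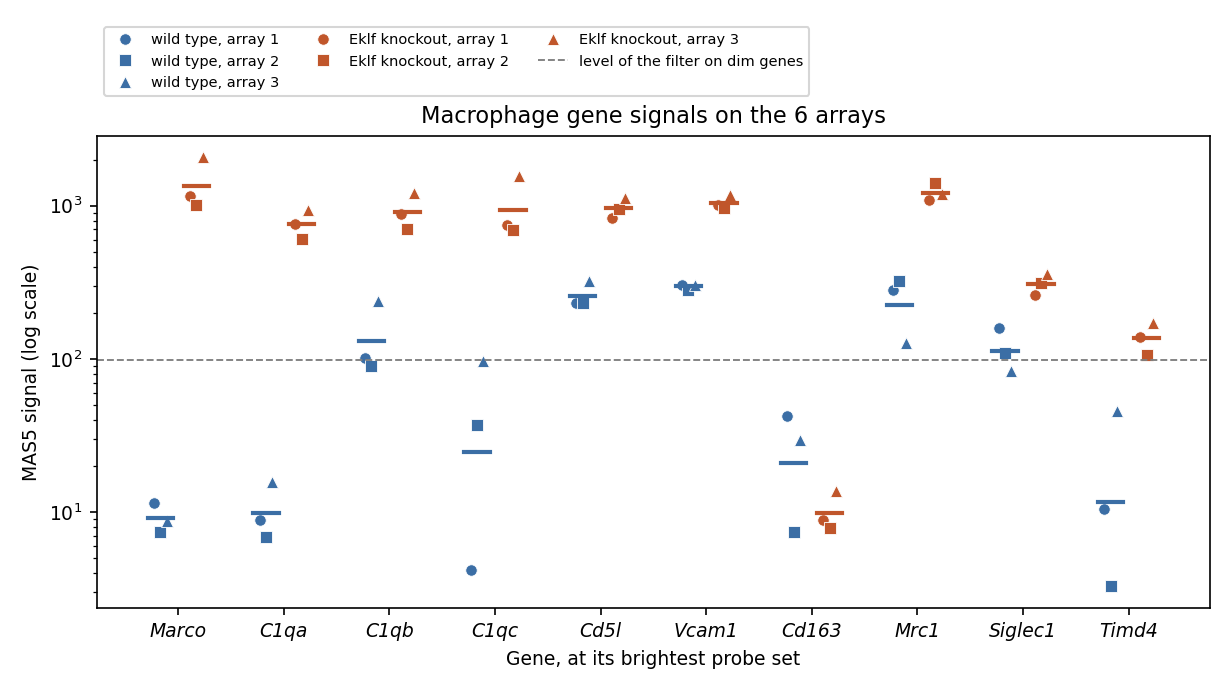
MAS5 signal (log axis) of the 10 macrophage genes at the brightest probe set of each, with 1 point per array and a bar at the geometric mean of each group of 3. For 9 of the 10 genes the knockout-labelled arrays sit above all wild-type-labelled arrays, while Cd163 lies under the dashed filter level of 98.6 on all 6.

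Across the list, 15 of 17 probe sets were higher on all 3 knockout-labelled arrays than on any wild-type-labelled array, 2 overlapped, and 0 were lower without overlap. Over all single-gene probe sets on the array that share was 35.1%. By gene, at the brightest probe set, 9 of 10 members showed this separation, against 34.1% of all genes tested that were higher without overlap and 25.2% that were lower without overlap. The filter on dim genes let through 7 of the 10 members and left out C1qa, Cd163 and Timd4. All 7, of which Marco and C1qc passed the filter only through their knockout-labelled signals, were called higher on the knockout-labelled arrays by limma at an adjusted p under 0.05, where 27.9% of all genes tested were called higher and 48.7% were called in either direction. Of all calls 57.3% were higher, a share that became 44.8% with quantile-normalized arrays, 46.3% with cyclic loess and 15% with centred medians. Because the members were chosen on this contrast, nothing is read from these counts. The median log2 difference of all 10 members was 2.62, and that of all 12799 genes tested was 0.14.

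Dim genes as a whole were brighter on the knockout-labelled arrays. Among the 6524 genes whose wild-type mean lay under the mark, the median log2 difference was 1.20, and 5.47% had a difference of at least 3. Picking genes by a low wild-type mean in itself favours positive differences. Among the 5394 genes whose mean over all arrays was under the filter, the median was 1.02. Of the members, 5 lay under the mark in the wild-type-labelled group, and among these Marco, C1qa, C1qc and Timd4 had differences over 3 while Cd163 was below 0.

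**Figure D2:**
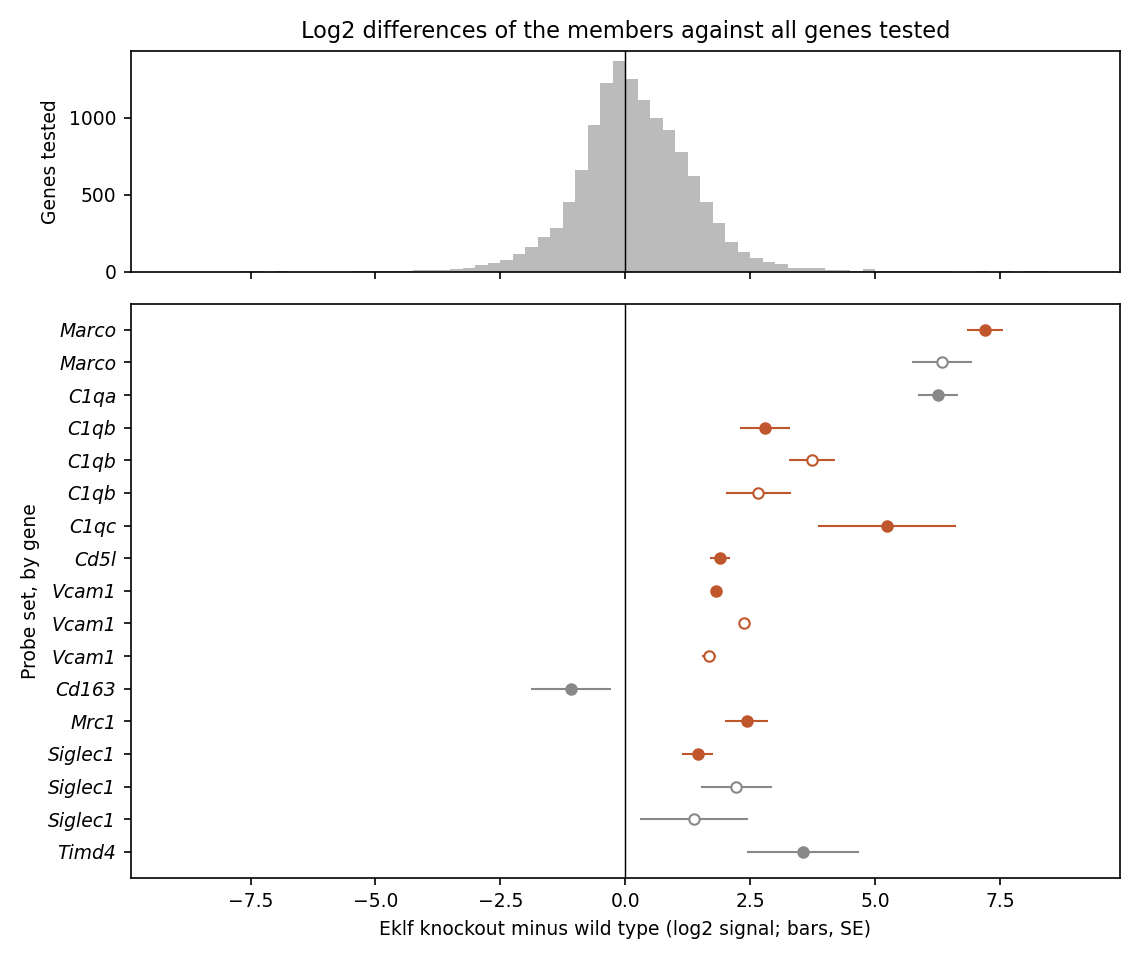
Log2 difference between knockout- and wild-type-labelled arrays, with the 12799 genes tested as a histogram above and the 17 member probe sets below (points, difference; bars, SE from 3 arrays per group; filled, brightest probe set of a gene; grey, mean under the filter). Cd163 alone lies left of 0, and Marco, C1qa and C1qc lie in the far right tail of the histogram.

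Array 3 was most often the highest of its group. Knockout-labelled array 3 was the highest of its group for 13 of 17 probe sets, where it was the highest for 33.0% of all single-gene probe sets. The exceptions were Mrc1, 1 probe set of Vcam1 and 2 of Siglec1. Among the wild-type-labelled arrays, array 3 was the highest for 10 of 17 probe sets (32.9% of all). Array 1 was the highest for 6, all 3 of Siglec1 among them, and array 2 for 1. Over the genes tested, each at its brightest probe set, wild-type-labelled array 3 was the highest for 42.2% and knockout-labelled array 3 for 31.1%. Summed over the 10 genes, the signal was 1155, 1102 and 1275 across the wild-type-labelled arrays, against 6896, 6780 and 9816 across the knockout-labelled ones. Leaving out knockout-labelled array 3 gave a median difference of 2.52 over the members.

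Of the alternative settings, 13 can move a difference (12 for a gene with 1 probe set), and each member kept its sign under all of these, but the sizes moved with the scaling. Quantile normalization, cyclic loess and median centring placed the median of all genes tested at -0.02, 0.00 and -0.68. Marco then stood at 6.79, 6.31 and 6.39, and Vcam1 at 1.65, 1.67 and 1.00. Siglec1 stood at 0.73, 0.70 and 0.63, against 1.45 on the deposited scale. Cd5l was 1.09 after median centring.

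**Figure D3:**
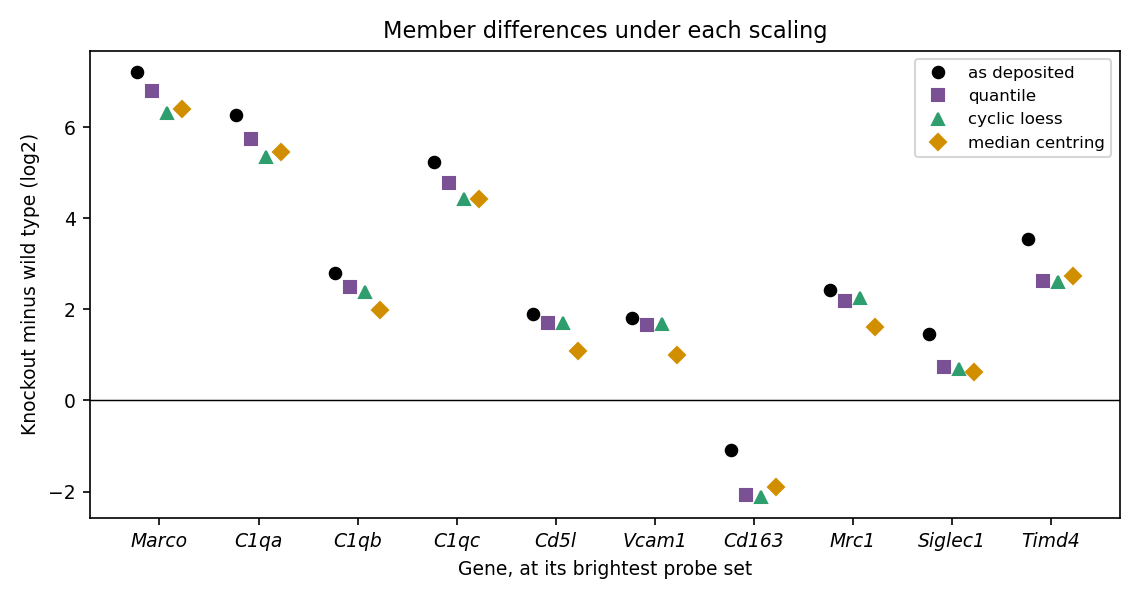
Log2 difference, knockout- minus wild-type-labelled, of each member at its brightest probe set on the deposited scale and after quantile normalization, cyclic loess or median centring of the arrays. Each gene keeps its side of 0 under every scaling, with Siglec1 closest to 0 after rescaling at 0.63 to 0.73.

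Other macrophage genes, listed by role although earlier results of these data were known, went in both directions. Of 81 genes listed for identity, engulfment, lysosomal digestion and haem recycling, 76 had a probe set and 70 were tested, and 27 rose and 27 fell on the knockout-labelled arrays (limma adjusted p under 0.05). The background over all genes tested was 27.9% higher and 20.8% lower. The split moved with scaling, to 24 higher and 26 lower after quantile normalization and to 11 higher and 37 lower after median centring. The median of this list was -0.05.

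Genes of myeloid and macrophage identity mostly fell, 16 of 23 tested against 5 that rose. Irf8, a transcription factor of the monocyte and dendritic cell lineage, fell by 2.50 on the log2 scale. Itgam, which encodes CD11b, fell by 2.19, and Spi1, which encodes PU.1, fell by 1.88. Itgam is also counted among the monocyte and neutrophil markers below, and which cells carry the differences of this list was not tested. Csf1r, the receptor for the growth factor that macrophages need, had signals of 8176, 8712 and 9837 across the wild-type-labelled arrays, against 3668, 4560 and 4633 across the knockout-labelled ones. It fell by 1.06 ± 0.16 (SE, limma adjusted p = 0.000713), and its groups did not overlap.

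The 5 identity genes that rose were Adgre1, Maf, Nr1h3, Spic and Aif1. Adgre1 encodes F4/80, the surface protein by which mouse macrophages are recognised, and it read 862, 855 and 1165 against 1829, 1658 and 1977. Its difference was 0.93 ± 0.18 (SE, limma adjusted p = 0.00282), and it was 0.12 and not called after median centring (adjusted p = 0.744). Spic, a transcription factor required by the red pulp macrophages that recycle iron, read 47.9, 40.4 and 15.8 against 273, 315 and 495, a difference of 3.48 ± 0.51 (limma adjusted p = 0.000686). All its wild-type signals were under the mark, so Spic passed the filter only through its knockout-labelled signals. Its difference was 2.09 with 64 added to every signal. Nr1h3, the liver X receptor alpha, rose by 2.05 and Maf by 1.68, and Aif1 by 1.60. The call of Aif1 was lost under all 3 rescalings (adjusted p 0.0939 to 0.142). Csf1r and Spi1 thus went the opposite way from Adgre1 and Spic on the same arrays.

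Among genes of engulfment, which code for receptors of dying cells and the proteins that bridge to them, 10 of 17 tested rose and 2 fell. Stab2, a phosphatidylserine receptor of sinusoidal endothelium, rose by 2.24 ± 0.20 (SE, limma adjusted p = 4.53e-05), Itgb3, an integrin chain, by 1.47, and Mfge8, a bridging protein, by 1.31. Gas6, the ligand of Mertk, rose by 1.54 and Msr1, a class A scavenger receptor like Marco, by 1.54. Mertk, by which central macrophages engulf expelled nuclei, was dim and under the filter, so it was not tested. It read 33.4, 10.3 and 11.8 across the wild-type-labelled arrays, against 307, 325 and 456 across the knockout-labelled ones, without overlap. The genes that fell were Elmo1 and Cd300lf, by 1.39 and 1.32. After median centring the calls of Itgb3, Mfge8, Gas6 and Msr1 were lost (adjusted p 0.0521 to 0.115), and the list then had 2 higher and 6 lower.

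Lysosomal genes were split, with 4 of 18 tested higher and 7 lower, or 2 and 10 after median centring. Higher were Ctsl and Ctsd, which encode cathepsins, Lgmn, which encodes legumain, and Dnase2a, the nuclease with which macrophages digest the DNA of engulfed nuclei. Dnase2a read 311, 287 and 203 against 556, 494 and 617, a difference of 1.08 ± 0.24 (SE, limma adjusted p = 0.0055). Npc2, a cholesterol carrier, fell by 1.70, and Hexa and Ctss fell by 1.52 and 1.47. Cd68, a lysosomal glycoprotein widely used as a macrophage marker, had a difference of -0.16 ± 0.23 that was not called (adjusted p = 0.586), with 573 and 510 as group means. After median centring Dnase2a and Ctsd were not called (adjusted p = 0.419 and 0.777), and Cd68 was called lower at -0.97 (adjusted p = 0.0137).

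Of 13 tested genes of haem and iron recycling, 9 rose and 2 fell, and 4 were higher and 3 lower after median centring. Hmox1, the inducible haem oxygenase, gave 173, 172 and 248 across the wild-type-labelled arrays, against 1790, 3532 and 4640 across the knockout-labelled ones. Its log2 difference was 3.99 ± 0.33 (SE, limma adjusted p = 3.01e-05). Fth1, the ferritin heavy chain, rose by 1.81, and Blvrb, a biliverdin reductase abundant in red cells, by 1.73. Slc40a1, which encodes the iron exporter ferroportin, rose by 0.89 ± 0.19, which median centring brought to 0.08 (limma adjusted p = 0.837, not called). Hmox2 fell by 0.67 and Flvcr1, a haem exporter, by 1.50, but Flvcr1 was not called when its probe sets were averaged (-0.12, adjusted p = 0.72) or without knockout-labelled array 3 (adjusted p = 0.0562). Erythroid and hepatic cells also express several genes of this list, and whether macrophages carry these differences was not tested.

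**Figure D4:**
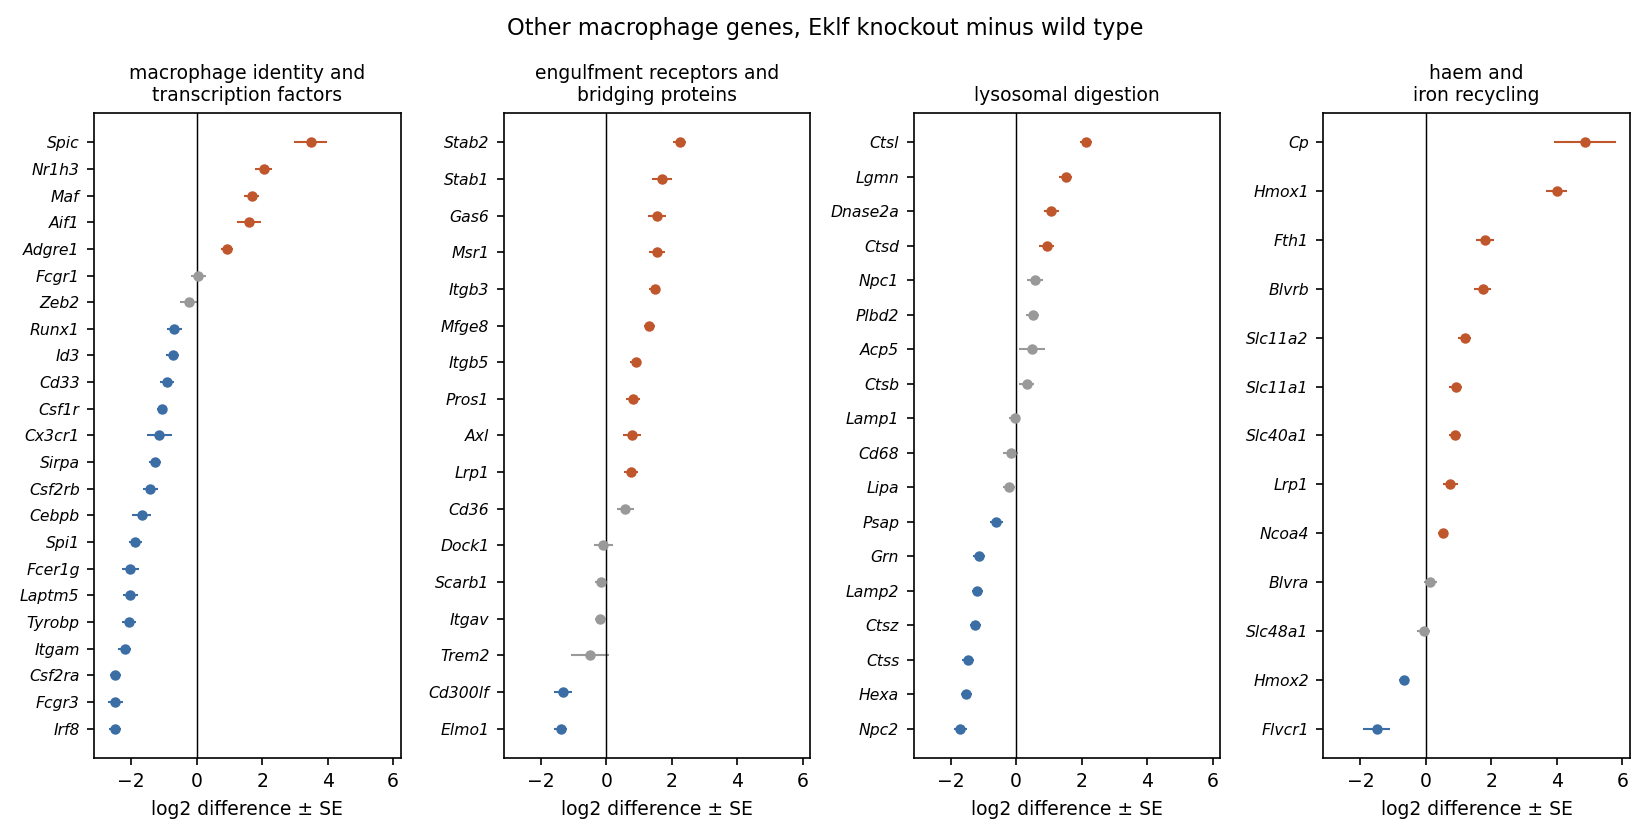
Log2 difference (points; bars, limma SE), knockout- minus wild-type-labelled, of each tested gene in 4 lists of macrophage biology, with called genes in orange (higher) or blue (lower) and genes not called in grey. Identity genes lie mostly left of 0, with Spic, Nr1h3, Maf, Aif1 and Adgre1 to the right, while engulfment and haem genes lie mostly right of 0 on this deposited scale (after median centring, 2 higher and 6 lower, and 4 higher and 3 lower).

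Of 18 tested genes for adhesion between erythroblast and macrophage, 6 rose and 5 fell, a split that median centring turned to 2 higher and 8 lower. The integrin chains that form the receptor of Vcam1 differed. Itgb1 read 2164, 1779 and 2012 against 3549, 5365 and 4581, a difference of 1.16 ± 0.18 (SE, limma adjusted p = 0.000988), but was not called after centring (adjusted p = 0.286) or when its probe sets were averaged (adjusted p = 0.065). Itga4 gave -1.51 ± 0.38 (limma adjusted p = 0.0102) at its brightest probe set, but its others past the filter ran from -1.47 to 2.13. With all its probe sets averaged, Itga4 gave 0.32 and was not called, so its direction is not settled. Maea, which encodes the erythroblast macrophage protein, did not pass at -0.32 ± 0.18 (adjusted p = 0.175), and it was called lower after median centring (-1.13, adjusted p = 0.00428). Ephb4, an ephrin receptor, rose by 3.99 from a dim wild-type mean of 25.3, and Cd44 and Ranbp9 fell by 1.63 and 1.19. Sirpa, which engages CD47, fell by 1.27, and Add1, a membrane skeleton protein, by 0.47.

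The proteases that join C1q in the first complement complex were dim on the wild-type-labelled arrays. C1s1, a serine protease of that complex, read 9.85, 19.3 and 4.03 against 649, 871 and 1010 and was not tested, as its mean was under the filter. C1ra, also under the filter and not tested, read 36.8, 11.1 and 53.5 against 168, 27.7 and 316, and its groups overlapped. Serping1, the inhibitor of these proteases, rose by 2.76 ± 0.27 (SE, limma adjusted p = 6.97e-05). Lrp1, an endocytic receptor, rose by 0.75 ± 0.22 (limma adjusted p = 0.0191), a weak call that was lost without either of wild-type-labelled arrays 1 and 2 or knockout-labelled arrays 1 and 3 (adjusted p 0.0533 to 0.0717) and after centring (-0.07). Cd93, a receptor once described as binding C1q, fell by 1.33, and was not called when its probe sets were averaged (-0.44, adjusted p = 0.181). Of 7 tested C1q partners and receptors, 2 rose and 1 fell, while quantile normalization gave 2 higher and 3 lower and median centring 1 higher and 5 lower.

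Relatives of the members, pooled here from several families, went in both directions. Of 18 tested scavenger receptors and lectins related to Marco, Mrc1, Siglec1 and Timd4, 7 rose and 6 fell, and 3 were higher and 7 lower after median centring. Without the filter 28 were tested, with 11 higher and 7 lower. Msr1, a relative of Marco, rose as given above. The scavenger receptors Scara3 and Colec12 were under the filter and not tested, with differences of 3.56 and 2.24 from dim wild-type signals. Siglece and Siglecf, sialic acid-binding lectins like Siglec1, fell by 3.60 and 2.12, and Clec7a, the beta-glucan receptor dectin-1, fell by 1.84. Clec4n, the lectin dectin-2, rose by 1.98 ± 0.26 (SE, limma adjusted p = 0.000356). Vsig4, a complement receptor of resident macrophages, rose by 1.61 ± 0.42, a call lost under all 3 rescalings (adjusted p 0.0941 to 0.121). Clec4f, a lectin of Kupffer cells, was under the filter and not tested, with a difference of -0.12.

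Markers of other cells moved between the same groups. Hepatocyte markers rose at 18 of 19 tested genes, and their summed signal was 9949 to 10536 across the wild-type-labelled arrays, against 157305 to 240189 across the knockout-labelled ones. Stromal markers rose at 14 of 16 tested genes and 1, Thy1, fell, with sums of 4620 to 7115 and 32411 to 48343. Endothelial and sinusoidal markers rose at 14 of 18, with sums of 4476 to 5064 and 11471 to 14797, and at 10 of 18 after quantile normalization and 9, with 1 lower, after median centring. Megakaryocyte markers rose at 10 of 11, with sums of 8471 to 9363 and 36553 to 47439. Vwf, with wild-type and knockout means of 179 and 2019, is counted in both the endothelial and the megakaryocyte list. For comparison, the summed signal of the 10 members was 6.65-fold higher on the knockout-labelled arrays, that of hepatocyte markers 18.5-fold, stromal 6.89-fold, megakaryocyte 4.87-fold and endothelial 2.78-fold.

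Monocyte and neutrophil markers moved the other way, with 15 of 19 tested lower and 1 higher, Cd14, the receptor for lipopolysaccharide. Their sums were 260715 to 307247 across the wild-type-labelled arrays, against 121468 to 235650 across the knockout-labelled ones. Cybb, a subunit of the phagocyte oxidase, fell by 2.75 and Ltf, a granule protein, by 1.98. Ccr2, the chemokine receptor of monocytes, stood at -1.97 ± 0.28 (SE) on that scale, with a limma adjusted p of 0.000543. Mpo, a granule enzyme of neutrophil precursors, did not pass at 0.02 ± 0.20 (limma adjusted p = 0.94), and it was lower after quantile normalization (-0.70, adjusted p = 0.00011). Of 13 tested lymphoid markers 11 fell and 1, Dntt, rose, with sums of 30175 to 43770 and 1713 to 2487, and of 7 tested mast cell markers 5 fell (Cpa3, Mcpt8, Ms4a2, Hdc and Gata2) and 0 rose, with sums of 8427 to 9399 and 2691 to 2852. Erythroid markers rose at 11 of 14 tested genes, and 1, Kit, the stem cell factor receptor of early progenitors, fell by 1.73. The calls of Cd14, Dntt and Gata2, and that of Add1 above, were weak (limma adjusted p 0.0202 to 0.0414). They were lost after quantile normalization (adjusted p 0.0625 to 0.161) and without either of knockout-labelled arrays 2 and 3 (adjusted p 0.0639 to 0.116).

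Some of these cells share genes with the list. Vcam1 and Mrc1 are made by stromal or endothelial cells as well as macrophages. Stab2, a marker of fetal liver sinusoids, read 230, 273 and 226 against 957, 1198 and 1307. Pecam1, a general endothelial marker, rose by 0.60 ± 0.22 (SE, limma adjusted p = 0.0483), but it was not called after quantile normalization (adjusted p = 0.184) or cyclic loess (adjusted p = 0.189), and centring gave -0.21. It was also not called without wild-type-labelled array 1 or 2 or knockout-labelled array 2 or 3 (adjusted p 0.1 to 0.162). Lyve1, found on sinusoidal endothelium and on some macrophages, did not pass at 0.66 ± 0.27 (adjusted p = 0.069), although it was called when its probe sets were averaged (1.18, adjusted p = 0.00857), and centring gave -0.15. Knockout-labelled array 3 held the highest sum of the members, of hepatocyte, erythroid and monocyte markers, and of the identity, engulfment, lysosomal, haem, adhesion and C1q partner lists. Array 1 was highest for stromal and mast cell markers, and array 2 for endothelial, megakaryocyte and lymphoid markers and for the lectin relatives. What part hepatocytes, stroma, endothelium or other cells have in the members' differences was not tested.

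**Figure D5:**
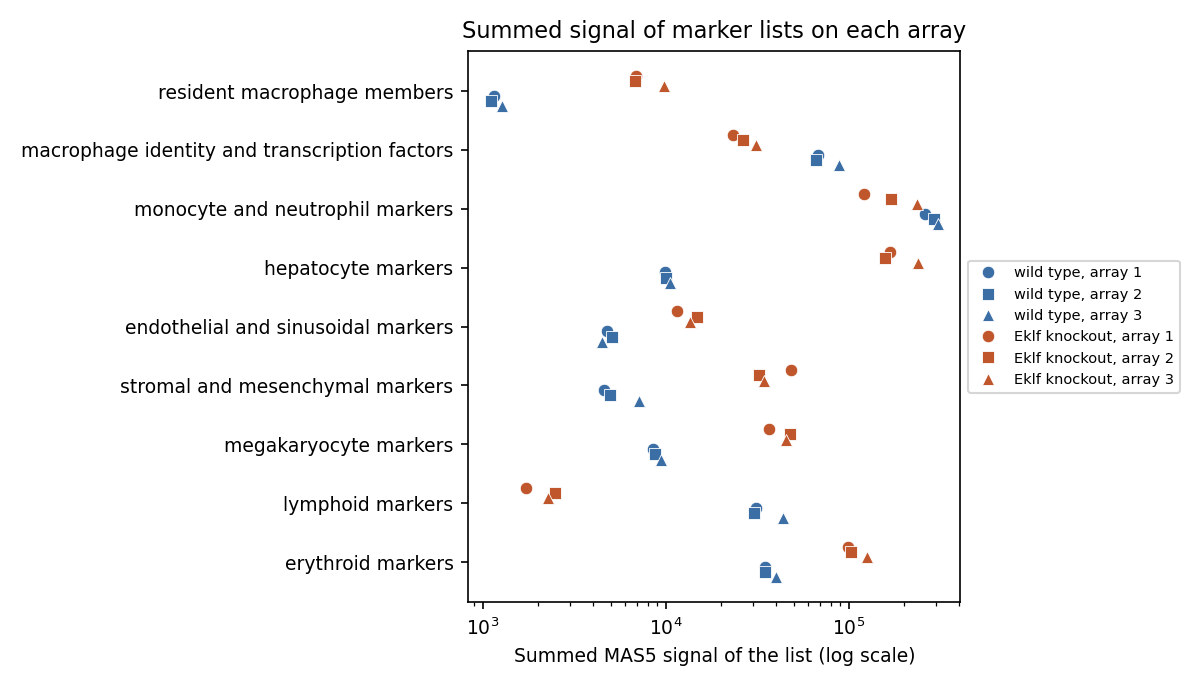
Summed MAS5 signal (log axis) of the genes of each marker list on each of the 6 arrays, by label. The resident macrophage members sum to 1102 to 1275 on the wild-type-labelled and 6780 to 9816 on the knockout-labelled arrays, apart from each other in the same direction as hepatocyte, stromal, endothelial, megakaryocyte and erythroid lists and opposite to the identity, monocyte and lymphoid lists.

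The genes most like C1q over the 6 arrays were sought by Pearson correlation with the mean log2 signal of C1qa, C1qb and C1qc. The 8 highest among the genes tested were Emc9, Crb3, Sgta, Ptdss2, Ndufs3, Epor, Aqp6 and Gstm3, with r of 0.996 to 0.999. Epor, the erythropoietin receptor, read 972, 1075 and 1455 against 3345, 2937 and 3431. None of the 8 is a member, and Cd5l stood at order 64 (r = 0.988), Vcam1 at 414 (0.967) and Marco at 573 (0.958). Mrc1 and Siglec1 were further down, at 2930 (0.83) and 3235 (0.808). As 724 genes, 5.66% of those compared, had r over 0.95, likeness over 6 arrays in 2 groups picked out no small set of genes.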

How the data were processed

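Values are those the authors deposited, 1 intensity per probe set and array on a linear scale, and the submitters' processing notes name MAS5 and Affymetrix Expression Console without versions. Every array has the same trimmed mean, so signals are relative to that mean and show no change in total RNA. No normalization was added. A floor of 1 was applied (303 values) before taking log2.

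Of 45101 probe sets, 34945 outside the Affymetrix controls list 1 gene and 932 list several, from which no gene was named. Entrez identifiers gave current RefSeq symbols for 34741. For each of 18193 genes the brightest probe set by mean log2 was used, and the 12799 with a mean at or above the 40th percentile (6.62) were tested. That mean is over all arrays, so a gene dim in 1 group could pass through the other.

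The test was limma 3.58.1 (lmFit, then eBayes with trend; R 4.3.3) on 3 against 3 arrays, two-sided. Its p-values were adjusted by Benjamini-Hochberg across the tested genes, and 0.05 was the threshold. The labels call the RNA samples independent without saying whether livers were pooled or shared a litter, so p-values measure only the spread between these samples. Only 3 arrays per group limit the precision. No pair of arrays held identical values.

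The members and lists were chosen with earlier results of these data known. Named genes are the members, up to 4 called genes of each list by smallest p, the brightest 4 markers of other cells, a fixed set and the 8 genes most like C1q. Maf, Nr1h3, Aif1, Ctsd, Lgmn, Cd300lf, Hmox2, Flvcr1, Gas6, Msr1, C1s1, C1ra, Vsig4, Clec4f, Scara3, Colec12, Cd14, Dntt, Thy1, Kit, Gata2, Add1 and Tfrc were named after their values were seen. 1 gene of the fixed set is not reported here.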

Additional observations from a re-analysis of the deposited data

How the results depend on the processing

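The 19 alternatives were other scalings, offsets, filters, variance models, probe set choices, a replicate block, a stricter threshold and each array left out. Genes called numbered 6232 as reported, 3776 at a threshold of 0.01 and 4875 to 6217 with 1 array left out. The share of calls that were higher was 57.3% as reported, 44.8% after quantile normalization, 46.3% after cyclic loess, 15% after median centring and 46.3% with the filter at the 60th percentile. Members called numbered 7, 6 after each of the 3 rescalings, 4 with that filter, which left 4 to test, and 7 with any 1 array left out. The members were chosen on this contrast, and Marco and C1qc passed the main filter only through their knockout-labelled signals. Nothing is therefore read from these counts of members. The median over members was 2.62, 1.80 after median centring, 1.90 with an offset of 64 and 2.52 to 2.67 with 1 array left out. Other macrophage genes called numbered 54 as reported and 48 to 53 with 1 array left out.

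Labels give the same replicate numbers to both genotypes. Deviations of same-numbered arrays correlated at 0.081, 0.036 and 0.09. Each array correlated best with its own number, which is a hint from the data. The labels do not say whether same-numbered samples share more than the number. With the replicate block 6277 genes, 7 members and 54 other macrophage genes were called. Of the named genes, the block added the call of Lyve1 (limma adjusted p = 0.0405), took away those of Pecam1 (0.0592) and Gata2 (0.0665), and changed no other call.

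Signs turned after median centring for Aqp6 (-0.09), Lrp1 (-0.07), Lyve1 (-0.15), Mpo (-0.80), Ndufs3 (-0.23), Pecam1 (-0.21), S100a8 (-0.71), S100a9 (-0.59) and Sgta (-0.09). After quantile normalization they turned for Aqp6 (-0.09), Mpo (-0.70), S100a8 (-0.76) and S100a9 (-0.60), and after cyclic loess for Aqp6 (-0.10). Itga4 turned with the mean of probe sets (0.32). With 1 array left out, differences ranged from -0.44 to 0.48 for Clec4f, from -0.29 to 0.01 for Cd68, from -0.16 to 0.23 for Mpo, from -0.19 to 0.40 for S100a8 and from -0.11 to 0.57 for S100a9. The cause was not tested.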
